A study of Mus musculus with 8 samples.

Results

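The 10 surface antigens described here are used to recognise or target leukaemia stem cells, and their RNA was followed in that of sorted mouse leukaemia cells with and without Nynrin. The 10 genes were taken by symbol from a deposited table of 48500 genes, and all 10 were found there: Kit, Flt3, Il1rap, Cd34, Cd44, Cd93, Cd47, Cd33, Ly6a and Cd9. The mutant cells were Nynrin-KO (Nynrin-/-) and the controls were WT (Nynrin+/+), with 4 libraries each, named here KO1 to KO4 and WT1 to WT4. All 8 came from leukaemic bone marrow, in a mouse model of myeloid leukaemia that HOXA9 and MEIS1 drive, and all were sorted the same way, as GFP-positive, c-Kit-positive and Gr-1-negative cells. About 10000 cells went into each Smart-Seq V4 library. The labels give no strain, age or deleted exon, and do not say whether each library is a separate mouse or a pool, and p-values therefore rest on the spread among the 8 libraries, which may be technical.

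Leukaemia stem cells are the cells of a myeloid leukaemia that can renew it, and they are isolated with antibodies against surface proteins. Some of these proteins are shared with normal progenitors, such as the growth factor receptors KIT and FLT3 and the sialomucin CD34. Others are better known from maturing myeloid cells, such as CD33, or serve as signals to phagocytes, such as CD47. c-Kit, the product of Kit, was the positive marker of this sort, so every cell collected was chosen for that protein whatever its genotype.

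The recovered depth was 1.83 M to 28.71 M reads (M for mega) in the Nynrin-KO libraries and 1.96 M to 33.12 M in the WT libraries, lowest in KO3 and WT3. Nynrin was low everywhere, at 0.0982 to 0.437 FPKM in Nynrin-KO and 0.008 to 0.286 FPKM in WT (exact two-sided permutation p = 0.9143), and does not check the labels. FPKM is a read count scaled to transcript length and to library depth. Xist and Ddx3y placed KO2, KO3 and KO4 apart from all WT libraries as male against female, and KO1 held RNA of both, which means that effects of sex and of genotype cannot be told apart. Xist was 12.7 FPKM in KO1 and 0.0175 to 0.366 FPKM in the other Nynrin-KO libraries, against 15.2 to 26.5 FPKM in WT. Ddx3y was 2.18 FPKM in KO1 and 18.2 to 20.7 FPKM in the other Nynrin-KO libraries, against at most 0.111 FPKM in WT. RNA of Ly6g, a gene for the Gr-1 antigen that the sort selected against, stood at 93.5 to 264 FPKM in Nynrin-KO and 0.707 to 49.3 FPKM in WT. Of 8 drivers and immature myeloid markers 3 rose (Ms4a3, Hoxa9 and Meis1) and 3 fell (Ctsg, Prtn3 and Mpo) in Nynrin-KO, where 14.0% of all genes tested rose and 13.8% fell. Meis1 could be tested only because of its level in Nynrin-KO, being under 1 FPKM in all WT libraries. Hoxa9 stood at 1.70 to 6.38 FPKM in Nynrin-KO and 0.569 to 1.90 FPKM in WT, and Meis1 at 2.03 to 5.12 FPKM in Nynrin-KO and 0.664 to 0.898 FPKM in WT, so the mouse copies of both named drivers were low. Of the genes for granule proteins of immature myeloid cells, those that passed the test, Mpo, Ctsg and Prtn3, fell. Prtn3 was 184 to 629 FPKM in Nynrin-KO and 1010 to 1510 FPKM in WT. Mpo was 518 to 1300.0 FPKM in Nynrin-KO and 1070.0 to 1780.0 FPKM in WT, and Ctsg was 538 to 1100.0 FPKM in Nynrin-KO and 1860.0 to 4370.0 FPKM in WT. Elane was 926 to 2490.0 FPKM in Nynrin-KO and 443 to 1040.0 FPKM in WT and did not pass the test, and Ms4a3, a membrane protein gene of granulocyte progenitors, was 64.4 to 182 FPKM in Nynrin-KO and 2.03 to 21.3 FPKM in WT.

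The antigens split into 3 sets. In Nynrin-KO Cd34, Flt3 and Cd93 fell, Ly6a, Cd9, Cd33, Cd44 and Il1rap rose, and Kit and Cd47 did not pass the test. The test was limma across all genes on log2(FPKM + 1), with Benjamini-Hochberg adjusted p under 0.05 as the threshold. All 10 passed the filter of at least 1 FPKM in at least 4 libraries, each with at least 1 FPKM in all 8. Of the 12524 genes tested, 27.9% were called, with 14.0% higher and 13.8% lower in Nynrin-KO, against 5 of 10 antigens higher and 3 of 10 lower. At an unadjusted p under 0.05 limma gave the same 8 antigens, against 40.5% of the genes tested. Over all genes 1754 were higher and 1734 lower, a split that became 2606 and 1350 when libraries were scaled without their 10 highest genes, while the antigens kept 5 higher and 3 lower. The median log2 change of the antigens was 0.20 and the median size of change 1.45, against -0.03 and 0.49 over all genes tested. The groups did not overlap for 7 of the 10 antigens and for 31.7% of the genes tested. These are bulk samples, so fewer cells with an antigen and less of its RNA per cell cannot be told apart.

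**Figure D1:**
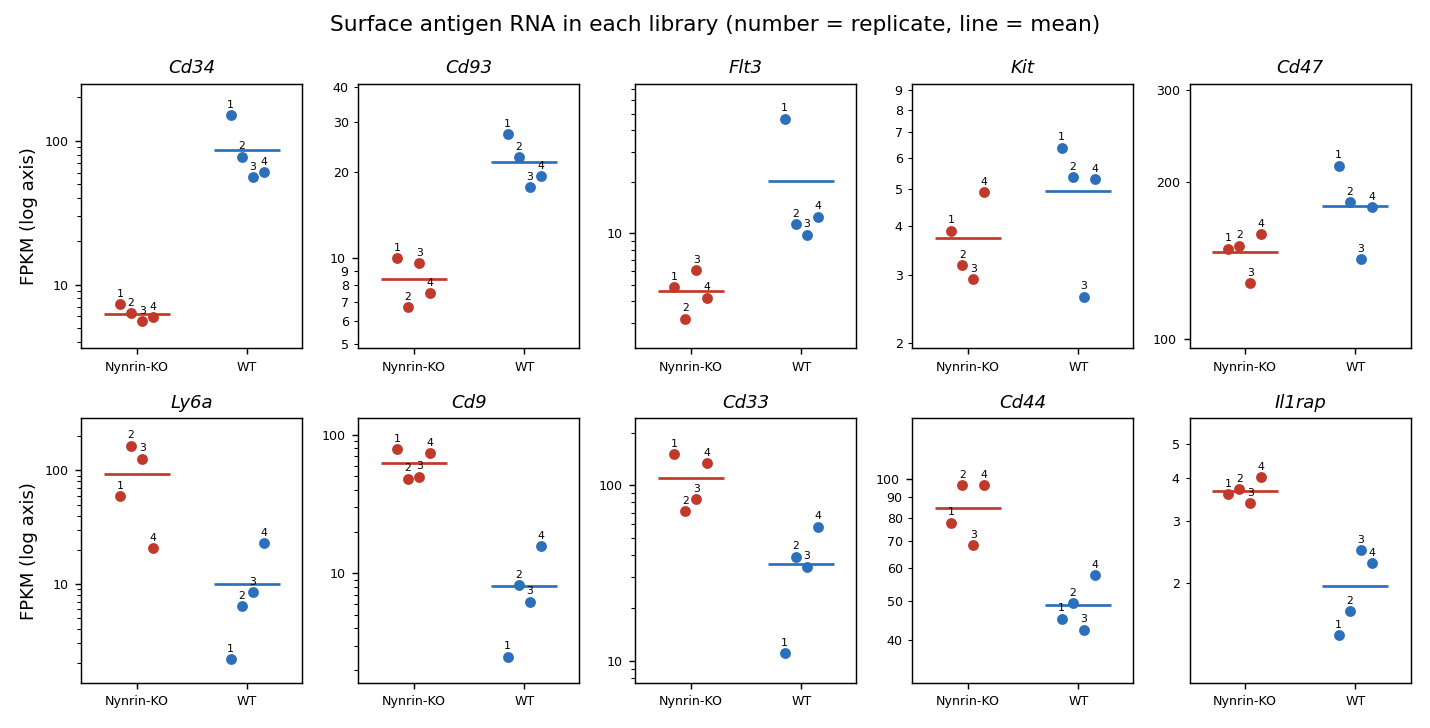
RNA level of each antigen (FPKM, log axis) in the 4 Nynrin-KO libraries (red, left) and the 4 WT libraries (blue, right), with the replicate number at each point and the mean as a line. The groups are separate for Cd34, Cd93, Flt3, Cd9, Cd33, Cd44 and Il1rap and overlap for Kit, Cd47 and Ly6a.

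**Figure D2:**
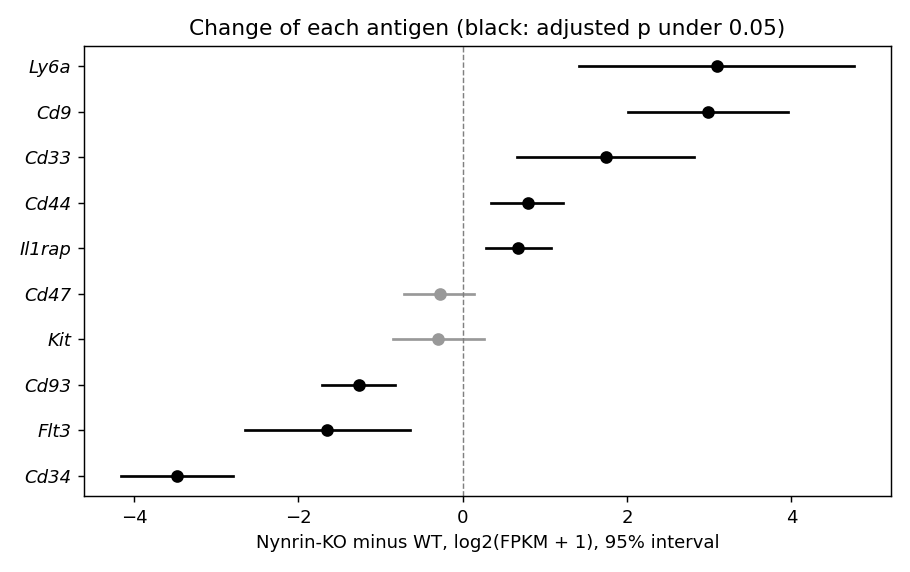
Difference of Nynrin-KO minus WT in log2(FPKM + 1) for each antigen, with its 95% interval from limma. The values run between -3.48 for Cd34 and 3.09 for Ly6a, and the intervals of Kit and Cd47, in grey, include 0.

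The cytokine receptors among the antigens went different ways. Kit, the receptor tyrosine kinase for stem cell factor (mm10 chromosome 5, 75574916 to 75656722, plus strand), was low in all libraries. It stood at 3.90, 3.17, 2.92 and 4.91 FPKM in KO1 to KO4, and 6.40, 5.37, 2.63 and 5.31 FPKM in WT1 to WT4. The groups overlapped because WT3 had the lowest value of all 8, while WT1, WT2 and WT4 lay above every Nynrin-KO library. The log2 change of -0.30 had a 95% interval of -0.85 to 0.26 (SE 0.25, limma adjusted p = 0.405), an interval too wide to show whether Kit differed. The shallow libraries KO3 and WT3 gave only 28 and 27 reads of Kit. Although its protein was selected in the sort, the mean Kit level in Nynrin-KO was above those of 44.8% of the genes tested, and in WT above those of 54.6%.

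Flt3, the receptor of FLT3 ligand on early progenitors (chromosome 5, 147330741 to 147400489, minus strand), fell in Nynrin-KO. It stood at 4.83, 3.16, 6.1 and 4.2 FPKM in KO1 to KO4, and 46.9, 11.3, 9.8 and 12.5 FPKM in WT1 to WT4. All Nynrin-KO libraries were below all WT libraries, and WT1 stood far above the other WT libraries. The mean was 4.57 ± 1.23 FPKM in Nynrin-KO and 20.1 ± 17.9 FPKM in WT (SD, n = 4 each), and the log2 change was -1.65 (SE 0.45, limma adjusted p = 0.0248). Without WT1 the log2 change was still past the threshold, at -1.15, but it missed it without KO1 (adjusted p = 0.0523), KO2 (0.0688) or KO4 (0.0595). The longest annotated transcript of Flt3, by which its values were divided, is a non-coding form of 3951 bases, so its level and rank against other genes depend on that choice.

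Il1rap, the shared co-receptor chain for interleukin-1 and interleukin-33 (chromosome 16, 26581704 to 26730117, plus strand), rose at a low level. It stood at 3.59, 3.71, 3.39 and 4.01 FPKM in KO1 to KO4, and 1.42, 1.66, 2.48 and 2.28 FPKM in WT1 to WT4. Every Nynrin-KO library was above every WT library, and the Nynrin-KO values were the most even of the 10 antigens, with the highest 1.18 times the lowest. The mean was 3.68 ± 0.258 FPKM in Nynrin-KO and 1.96 ± 0.504 FPKM in WT (SD, n = 4 each), and the log2 change was 0.67 (SE 0.17, limma adjusted p = 0.0202). The call was lost without KO2 (adjusted p = 0.0551), KO4 (0.0625), WT1 (0.0582) or WT2 (0.0534), with log2 changes of 0.58 to 0.67. The antisense gene Gm20319 overlaps its exons by 552 bases, and since no source used here gives the use of strand in counting, reads of the 2 genes cannot be told apart.

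The adhesion and mucin-type antigens held the largest fall. Cd34, which encodes a sialomucin of progenitor and endothelial cells (chromosome 1, 194938819 to 194961279, plus strand), fell 13.8-fold by the means. It stood at 7.30, 6.29, 5.54 and 5.93 FPKM in KO1 to KO4, and 151, 77.5, 55.7 and 60.8 FPKM in WT1 to WT4. The groups were far apart, with the lowest WT library at 55.7 FPKM and the highest Nynrin-KO library at 7.30 FPKM. The mean was 6.26 ± 0.756 FPKM in Nynrin-KO and 86.4 ± 44.3 FPKM in WT (SD, n = 4 each), and the log2 change was -3.48 (95% interval -4.16 to -2.80, SE 0.30, limma adjusted p = 0.000929). Leaving out any of the 8 libraries kept Cd34 past the threshold, with log2 changes of -3.64 to -3.17. The deposited values divide by the longest annotated transcript, which for Cd34 is a retained-intron form of 3063 bases, so its level against other genes depends on that choice. The antisense gene Gm16897 overlaps Cd34 exons by 148 bases.

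The promoter of Cd34 is shown with those of Cd9 and Cd33 because these genes have a large change each and different directions. The sequences are the 250 bases before the RefSeq start site (GRCm38.p6, the assembly of mm10), 5′ to 3′ on the strand of the gene. Capitals mark TGACAG, the core of the MEIS site, and all other bases are in lower case.
Cd34 (chr1:194938571-194938820, plus strand): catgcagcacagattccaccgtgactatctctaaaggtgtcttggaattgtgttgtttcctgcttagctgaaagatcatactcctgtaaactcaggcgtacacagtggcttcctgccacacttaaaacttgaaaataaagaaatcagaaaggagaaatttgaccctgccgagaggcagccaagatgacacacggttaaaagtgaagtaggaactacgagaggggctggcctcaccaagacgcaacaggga
Cd33 (chr7:43533172-43533421, minus strand): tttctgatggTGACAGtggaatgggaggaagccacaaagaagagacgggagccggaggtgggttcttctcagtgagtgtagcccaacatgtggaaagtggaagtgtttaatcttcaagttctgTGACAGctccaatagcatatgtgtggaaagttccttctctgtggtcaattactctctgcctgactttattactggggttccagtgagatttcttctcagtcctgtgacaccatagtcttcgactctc
Cd9 (chr6:125494761-125495010, minus strand): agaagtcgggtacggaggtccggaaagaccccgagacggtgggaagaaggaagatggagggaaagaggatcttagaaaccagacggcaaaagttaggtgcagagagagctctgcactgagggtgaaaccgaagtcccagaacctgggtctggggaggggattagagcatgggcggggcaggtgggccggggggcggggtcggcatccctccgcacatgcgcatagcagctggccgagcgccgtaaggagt
RefSeq promoter windows of 300 bases, with 50 of them after the start site, matched 8 of the 10 antigens, namely all but Ly6a and Cd93. They were searched on both strands for TGACAG, for the core of the interferon-stimulated response element, and for TTCNNNGAA, a STAT site. TGACAG was in the windows of Cd33 and Cd47, against 19.2% of 32851 promoters, and TTCNNNGAA, in 8.30% of promoters, was in none of the 8. The window of Cd33 held TGACAG 3 times, at 240 and 127 bases before and 6 bases after the start site, and 0.204% of these promoters hold it at least 3 times. The cut at 3 was not planned and was set to the count in Cd33, so that share carries no test. The interferon element core, found in 3.44% of promoters, was in the window of Il1rap alone, 21 bases after its start site. That stretch is shown with the match in capitals.
Il1rap (chr16:26581715-26581744, plus strand): tccggaggggGAAAAAGAAAgtgcggcgga
A match is a description of these letters and not a measured binding site.

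Cd93, a transmembrane C-type lectin of early progenitors and endothelium (chromosome 2, 148436640 to 148443563, minus strand), fell as well. It stood at 10, 6.72, 9.59 and 7.54 FPKM in KO1 to KO4, and 27.3, 22.6, 17.7 and 19.4 FPKM in WT1 to WT4. The groups did not overlap, and the spread within each was small, with the highest value 1.5 times the lowest in Nynrin-KO and 1.54 times in WT. The log2 change was -1.26 (SE 0.20, limma adjusted p = 0.00305), and it stayed between -1.35 and -1.15 and past the threshold when any library was left out.

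Cd44, the receptor of the matrix polymer hyaluronan (chromosome 2, 102811141 to 102901665, minus strand), rose by a modest amount at a high level. It stood at 77.9, 96.6, 68.4 and 96.2 FPKM in KO1 to KO4, and 45.1, 49.2, 42.4 and 57.8 FPKM in WT1 to WT4. All Nynrin-KO libraries were above all WT libraries, and the means of 84.8 ± 14.0 FPKM in Nynrin-KO and 48.6 ± 6.72 FPKM in WT (SD, n = 4 each) differed 1.74-fold. The log2 change was 0.79 (SE 0.19, limma adjusted p = 0.0169), and without KO2 it missed the threshold at 0.72 (adjusted p = 0.0515).

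The antigens that signal to or within myeloid cells also parted. Cd47, the ligand that tells phagocytes not to engulf a cell (chromosome 16, 49800533 to 49915010, plus strand), was the most abundant antigen by the mean in both groups. It stood at 149, 151, 128 and 159 FPKM in KO1 to KO4, and 215, 183, 142 and 179 FPKM in WT1 to WT4. The ranges overlapped through WT3, which lay below KO1, KO2 and KO4. The log2 change of -0.28 had a 95% interval of -0.71 to 0.14 (limma adjusted p = 0.295), and its sign turned to 0.22 under quantile normalization.

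Cd33, a sialic-acid-binding lectin that is a drug target in human myeloid leukaemia (chromosome 7, 43524216 to 43544428, minus strand), rose. It stood at 151, 71.6, 83.4 and 134 FPKM in KO1 to KO4, and 11.1, 39.3, 34.4 and 58.3 FPKM in WT1 to WT4. Every Nynrin-KO library was above every WT library, but KO2 exceeded WT4 only by a small step and WT1 was low against the other WT libraries. The mean was 110.0 ± 38.5 FPKM in Nynrin-KO and 35.8 ± 19.4 FPKM in WT (SD, n = 4 each), and the log2 change was 1.74 (SE 0.48, limma adjusted p = 0.0258). Without KO1 (adjusted p = 0.0673) or KO4 (0.0672) it missed the threshold.

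The membrane proteins Ly6a and Cd9 showed the largest rises. Cd9, a tetraspanin that organises other membrane proteins (chromosome 6, 125460266 to 125494791, minus strand), stood at 79.0, 48.2, 49.9 and 73.7 FPKM in KO1 to KO4, and 2.49, 8.17, 6.22 and 15.6 FPKM in WT1 to WT4. The lowest Nynrin-KO library was well above WT4, the highest WT library, and WT1 was again the lowest of all. The mean was 62.7 ± 15.9 FPKM in Nynrin-KO and 8.13 ± 5.53 FPKM in WT (SD, n = 4 each), and the log2 change was 2.98 (95% interval 2.01 to 3.96, limma adjusted p = 0.00248). It stayed past the threshold when any library was left out, at 2.59 to 3.34. The opposite-strand gene Gm26728 overlaps its exons by 218 bases.

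Ly6a encodes Sca-1, a lipid-anchored marker of mouse stem and progenitor cells that interferon is known to induce (chromosome 15, 74994877 to 74998031, minus strand). It stood at 59.5, 165, 127 and 20.6 FPKM in KO1 to KO4, and 2.18, 6.36, 8.54 and 23.0 FPKM in WT1 to WT4. This was the most uneven antigen, with KO4 just below WT4 and the highest value 8 times the lowest in Nynrin-KO and 10.5 times in WT. The mean was 93.1 ± 65.1 FPKM in Nynrin-KO and 10 ± 9.06 FPKM in WT (SD, n = 4 each), and the log2 change was 3.09 (95% interval 1.41 to 4.76, SE 0.74, limma adjusted p = 0.0157). The call held when any library was left out but not with voom on recovered reads (log2 change 2.57, adjusted p = 0.0545). Ly6a lies in a family of related genes, and reads shared with its relatives could have been split in counting.

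The antigens made up different shares of their summed RNA in the groups. The 10 antigens summed to 546, 556, 485 and 510 FPKM in KO1 to KO4 and 509, 405, 322 and 434 FPKM in WT1 to WT4, so that the groups overlapped through WT1. Cd34 was 1.19% ± 0.0968 of that sum in Nynrin-KO and 20.1% ± 6.80 in WT, ranked 7 of the 10 by mean level in Nynrin-KO and 2 in WT. Cd47 was 28.0% ± 2.11 of it in Nynrin-KO and 43.2% ± 1.83 in WT (SD, n = 4 each). Cd9 exceeded Cd34 in every Nynrin-KO library and in no WT library: the ratio of Cd9 to Cd34 FPKM was 10.8, 7.67, 9.01 and 12.4 in KO1 to KO4, against 0.0164, 0.105, 0.112 and 0.257 in WT1 to WT4. Kit was near the bottom of the order with Il1rap in both groups, ranked 9 and 10 by the mean. These shares and the ratio were chosen after their values were seen and carry no test.

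Genes with the most similar profiles were found by the smallest root mean square distance between centred log2(FPKM + 1) profiles over the 8 libraries, among 9057 named protein-coding genes tested. The nearest to Cd34 were Slc4a8, a bicarbonate transporter gene (distance 0.24), Lgals1, which encodes galectin-1 (0.35), and Mif, a cytokine gene (0.36), where the profile of Cd34 itself had a root mean square of 1.78. The nearest to Ly6a were Oas3 (0.32), Rsad2 (0.50) and Ube2l6 (0.52), all known to be induced by interferon, against 1.89 for Ly6a. The nearest to Cd9 were C5ar1 (0.26), the receptor of complement C5a, the transcription factor gene Ets1 (0.26) and Il1rn (0.26), the interleukin-1 receptor antagonist gene, against 1.61 for Cd9. The nearest to Cd33 were Trem1 (0.18), Cd177 (0.20), a neutrophil surface gene, and Sgms2 (0.20), against 1.10 for Cd33. Cd44 lay nearest to Cast (0.07), Birc2 (0.07) and Iqgap1 (0.08), and Il1rap to Insr (0.09), mt-Nd6 (0.09) and Rnf141 (0.09). Cd93 lay nearest to Heatr3 (0.10), Elovl7 (0.11) and Fdx1 (0.14), and Flt3 to H2ac7 (0.36), Syce2 (0.37) and Bzw2 (0.37). Many genes share the split between the groups, so these distances are a description of 8 libraries.

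Other genes of the same receptors and families were counted from fixed lists. Of 15 other stem and progenitor surface genes 5 could be tested, 2 rose and 1 fell, where 14.0% of all genes tested rose and 13.8% fell, and their median log2 change was -0.36, where that of all genes tested was -0.03. Cd27, a co-stimulatory receptor, rose by 1.48 on the log2 scale, and Cd38, an ectoenzyme, by 1.17, although Cd38 passed the filter through the Nynrin-KO libraries alone. The laminin receptor chain Itga6 fell by 0.74. Of 20 other surface antigens of myeloid leukaemia 17 were in the table, 14 were tested, 9 rose and 0 fell, with a median log2 change of 1.41. They included the cytokine receptor chain Il2rg, the inhibitory receptor Havcr2 (TIM-3), the adhesion receptor Adgre5 (CD97) and the checkpoint protein Vsir (VISTA), with log2 changes of 1.92, 2.05, 1.62 and 1.69. Havcr2 passed the filter mainly through Nynrin-KO, with 1 WT library at 1 FPKM or more. Clec12a, a lectin also used as a leukaemia stem cell marker, stood at 187 to 327 FPKM in Nynrin-KO and 173 to 358 FPKM in WT, a log2 change of -0.24 (limma adjusted p = 0.565).

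Around KIT and FLT3, 3 of 15 tested signalling genes rose and 0 fell, with 18 listed and a median of 0.25, a share of rises not far from the 14.0% over all genes tested. They were Dusp6, a phosphatase gene that ERK signalling induces, Lyn, a Src-family kinase gene, and Cblb, a ubiquitin ligase gene, with log2 changes of 2.07, 1.06 and 1.02. The FLT3 ligand gene Flt3l, at 0.884 to 1.59 FPKM in Nynrin-KO and 0.183 to 0.821 FPKM in WT, did not pass the filter, nor did the stem cell factor gene Kitl, at most 0.224 FPKM. Of the 5 class III receptor kinase genes, 4 were tested, with a median of -0.60, and Pdgfrb fell beside Flt3, by 0.91 on the log2 scale, having passed the filter through the WT libraries alone. Csf1r, the receptor of macrophage colony-stimulating factor, stood at 31.0 to 139 FPKM in Nynrin-KO and 24.6 to 39.5 FPKM in WT, a log2 change of 1.3 (limma adjusted p = 0.0531).

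Of 16 interleukin-1 system genes 15 were in the table and 10 were tested, 6 of which rose and 0 fell, with a median of 0.97. Over all genes tested 14.0% rose and 13.8% fell. Il1b, its antagonist Il1rn, the decoy receptor Il1r2 and the adaptor Myd88 rose by 2.95, 2.79, 3.05 and 1.07 on the log2 scale, beside the rise of the co-receptor Il1rap. Of 8 genes of the CD47 axis 6 were tested, with a median of -0.21, and the receptor Sirpa rose by 0.90 (limma adjusted p = 0.0492) while Calr, whose product calreticulin can act as the opposing signal on the surface, fell by 2.67. Of 14 genes of the CD44 axis 8 were tested, with a median of 0.29, the protease gene Mmp9 up by 2.93 and 0 that fell. The rises, 1 of 6 in the CD47 axis and 1 of 8 in the CD44 axis, were near the 14.0% over all genes tested. Mmp9 and Il1r2 are also in the list of mature neutrophil genes.

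Among relatives by sequence or fold, the Ly6 family had 5 of 8 tested genes that rose and 0 that fell, of 13 listed, with a median of 2.11, where 14.0% of all genes tested rose and 13.8% fell. Beside Ly6a they were Ly6i, Ly6d, Ly6g and Plaur, with log2 changes of 3.99, 2.55, 3.23 and 1.66, and Ly6d passed the filter through the Nynrin-KO libraries alone. Ly6g is also in the list of mature neutrophil genes. Ly6e, at 91.2 to 415 FPKM in Nynrin-KO and 220.0 to 306 FPKM in WT, did not pass the test (log2 change -0.55, limma adjusted p = 0.346). Nor did Ly6c2, the most abundant of the family in both groups (log2 change 0.39, limma adjusted p = 0.476). Its level was 1080 to 3190 FPKM in Nynrin-KO and 948 to 2180 FPKM in WT. Of 9 Siglec genes 6 were tested, 3 rose and 0 fell, with a median of 1.43 and with Siglece at 1.61 and Siglecf at 1.62 close to Cd33 at 1.74. Of 15 tetraspanin genes and CD9 partners 13 were tested, 4 rose and 2 fell, with a median of 0.22 and a share of falls near the 13.8% over all genes tested. Beside Cd9 the rises were Cd63, a granule membrane protein gene, Tspan13 and Cd82, by 3.33, 2.13 and 0.89, and the falls were Tspan3 and Tspan4, with log2 changes of -0.86 and -1.29. Of the 4 CD93 family genes only Cd93 and the thrombomodulin gene Thbd were tested, with a median of -0.72, and Thbd had a log2 change of -0.18 (limma adjusted p = 0.576). Of the 3 CD34 family genes only Cd34 passed the filter, with Podxl at most 0.203 FPKM and Podxl2 at most 1.39 FPKM.

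**Figure D3:**
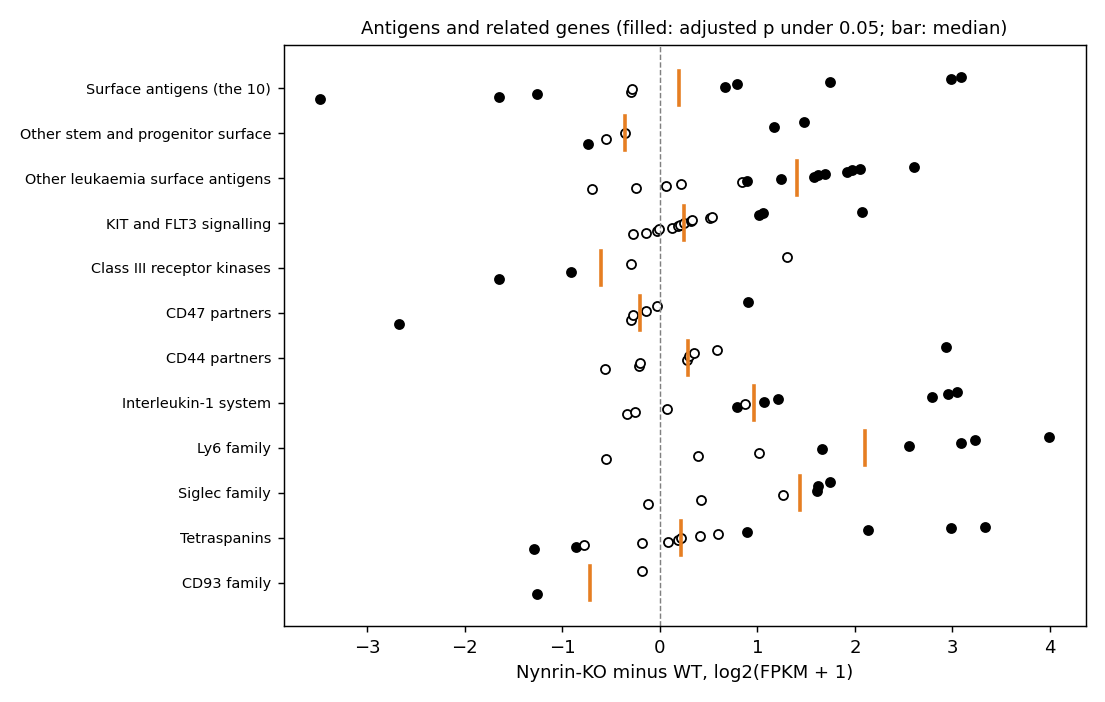
Difference of Nynrin-KO minus WT in log2(FPKM + 1) for each tested gene of the 10 antigens and 11 related lists; filled points passed the limma threshold and the bar is the median of the list. The other leukaemia surface antigens have a median of 1.41 with no filled point below 0, and the tetraspanins have filled points on both sides.

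Genes of interferon response and of mature neutrophils differed between the groups, as several antigens did, and a link within the groups was not tested. Of 25 interferon-stimulated genes 24 rose and 0 fell (median log2 change 2.93), where 14.0% of all genes tested rose and 13.8% fell. Ifi44 passed the filter through Nynrin-KO alone and Ifit1 mainly so, with 1 WT library at 1 FPKM or more. The summed level of the 25 genes was 1200.0, 5530.0, 2370.0 and 1190.0 FPKM in KO1 to KO4 and 73.9, 106, 125 and 524 FPKM in WT1 to WT4. KO2 and KO3 were highest in both this sum and Ly6a, and WT4 was the highest WT library in both, while KO4 had a higher interferon sum than WT4 and slightly less Ly6a. Of 17 mature neutrophil genes, all tested, 10 rose and 0 fell, with a median of 2.51. Their sum was mostly S100a8, S100a9 and Ngp, which did not pass the test (limma adjusted p = 0.0975, 0.0943 and 0.0958). It was 126000 to 286000 FPKM in Nynrin-KO and 3060 to 106000 FPKM in WT, lowest in WT1. WT1 was also the highest library of all in Cd34, Flt3, Cd93, Cd47 and Kit and the lowest in Cd33, Cd9, Ly6a and Il1rap. When the mean log2 level of the neutrophil genes, itself higher in Nynrin-KO, entered the model, 8 genes of 12524 passed limma, and Cd34 was among them (log2 change -2.72, adjusted p = 0.0430). In that fit Cd9 was at 1.69 (adjusted p = 0.0782), Cd93 at -1.04 (0.135), Ly6a at 1.89 (0.360), Cd44 at 0.67 (0.269), Il1rap at 0.43 (0.404), Flt3 at -0.42 (0.623) and Cd33 at 0.25 (0.681).

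**Figure D4:**
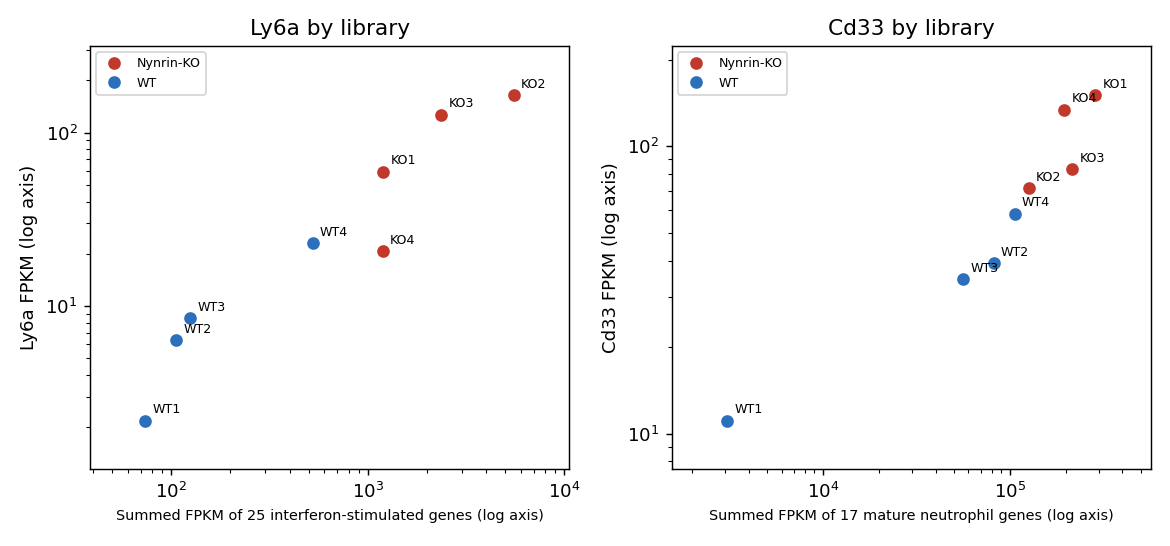
Level of Ly6a against the summed level of 25 interferon-stimulated genes (left) and of Cd33 against that of 17 mature neutrophil genes (right), in FPKM on log axes, 1 point per library with Nynrin-KO in red and WT in blue. KO2 is highest and WT1 lowest on the left, and KO1 is highest and WT1 lowest on the right. The neutrophil sum is mostly S100a8, S100a9 and Ngp.

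Markers of further cell types that carry some of these antigens were present, many at low levels, with no listed gene at 0 in all libraries. Their part in the results was not tested. Over all genes tested 14.0% rose and 13.8% fell. Several counts of rises here include genes that passed the filter through the Nynrin-KO libraries alone and so had to differ: Ms4a2 of the mast cell and basophil genes, Mrc1 and Mertk of the monocyte and macrophage genes, Ccr3 of the eosinophil genes, Cd79a of the B cell genes, Pf4 of the megakaryocyte genes and all 3 tested erythroid genes. Of 10 mast cell and basophil genes 6 were tested, 3 rose and 1 fell, with a sum of 48.5 to 119 FPKM in Nynrin-KO and 10.7 to 14.7 FPKM in WT. Beside Ms4a2, Hdc rose, at 17.1 to 39.3 FPKM in Nynrin-KO and 1.84 to 4.0 FPKM in WT. The protease gene Cpa3 rose as well, at 15.5 to 55.3 FPKM in Nynrin-KO and 0 to 2.94 FPKM in WT. Gata2 fell, with a log2 change of -1.06. The mast cell protease genes Tpsb2 and Cma1 were at most 0.655 and 0.502 FPKM. Of 17 monocyte and macrophage genes 16 were tested, 8 rose and 0 fell, with a sum of 1910.0 to 4330.0 FPKM in Nynrin-KO and 1340.0 to 2570.0 FPKM in WT. Ly6c2 made up the largest part of that sum in every library and did not pass the test (limma adjusted p = 0.476). The abundant markers Adgre1, Cd68 and Ccr2 did not pass either, with log2 changes of -0.02, -0.11 and 0.19 (limma adjusted p = 0.968, 0.867 and 0.805). The rises included C1qa, at 15.3 to 20.8 FPKM in Nynrin-KO and 0.98 to 2.5 FPKM in WT. Apoe was 67.3 to 410 FPKM in Nynrin-KO and 2.51 to 9.27 FPKM in WT, and Vcam1 32.4 to 121 against 0.946 to 4.37 FPKM. Fcgr1 also rose, but passed the filter mainly through Nynrin-KO, with 1 WT library at 1 FPKM or more. Of 10 endothelial genes 7 were under 1 FPKM in all libraries, the defining gene Cdh5 at most 0.475 FPKM, and of the 2 tested Pecam1, which myeloid cells also express, fell. The endothelial sum was 11.2 to 17.2 FPKM in Nynrin-KO and 27.1 to 47.2 FPKM in WT, mostly Pecam1 at 9.07 to 10.8 FPKM in Nynrin-KO and 23.2 to 46.0 FPKM in WT. Of 7 megakaryocyte genes found, 2 were tested and Pf4 rose, with a sum of 4.29 to 8.48 FPKM in Nynrin-KO and 0.469 to 4.54 FPKM in WT. Erythroid genes summed to 9.09 to 50.0 FPKM in Nynrin-KO and 0.324 to 3.22 FPKM in WT, and the 3 tested of 11 rose. Of 8 T and natural killer cell genes 2 were tested and rose, with a sum of 113 to 231 FPKM in Nynrin-KO and 0.819 to 11.5 FPKM in WT that was mostly Nkg7. Nkg7 reached 1 FPKM in all 4 Nynrin-KO libraries but in 2 WT libraries, and Gzma, the other, in 1 WT library. Their passing of the filter thus rested mainly on Nynrin-KO. Of 7 eosinophil genes 3 were tested and 2 rose, with a sum of 42.0 to 196 FPKM in Nynrin-KO and 5.17 to 350.0 FPKM in WT. Beside Ccr3 the other rise was Ear2, at 25.8 to 40.3 FPKM in Nynrin-KO and 0.883 to 2.13 FPKM in WT. Prg2, which made up most of the highest eosinophil sums, was 12.4 to 162 FPKM in Nynrin-KO and 4.18 to 347 FPKM in WT and did not pass the test (log2 change -1.54, limma adjusted p = 0.421). Of 8 B cell genes 3 were tested and 1 rose, and all 8 summed to 22.2 to 39.5 FPKM in Nynrin-KO and 21.9 to 27.9 FPKM in WT. That sum was mostly Cd79b, which did not pass the test (limma adjusted p = 0.495). The riser Cd79a was 2.63 to 8.51 FPKM in Nynrin-KO and 0.0398 to 0.7 FPKM in WT. Of 8 dendritic cell genes 3 were tested and 0 rose, and all 8 summed to 27.3 to 72.1 FPKM in Nynrin-KO and 11.2 to 34.3 FPKM in WT.

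The antigens differed in how far their calls held when the libraries were split. The gene model Gm10800 stood at 3350.0 and 3990.0 FPKM in KO2 and KO4 and 6080.0 FPKM in WT1, and at 28600 and 127000 FPKM in KO1 and KO3 and 37300 to 142000 FPKM in WT2, WT3 and WT4. Within the 5 libraries with the high level Cd34 (log2 change -3.14), Cd93 (-0.94), Cd9 (2.63) and Ly6a (2.89) passed the threshold of limma, and Flt3 (-0.92, adjusted p = 0.0610), Cd33 (1.37, 0.0644), Cd44 (0.55, 0.189) and Il1rap (0.53, 0.259) did not. Without WT1 and KO1 together, Cd34 (-3.24), Cd93 (-1.23), Flt3 (-1.18) and Cd9 (2.47) passed, and Ly6a was at 2.70 (adjusted p = 0.0709). Over 25 alternatives Cd34 stayed past the threshold in 25, Cd93 and Cd9 in 24 each, Ly6a in 21, Cd44 in 19, Cd33 and Flt3 in 18 each and Il1rap in 15. Kit stayed short of the threshold with a negative sign in all 25.

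**Figure D5:**
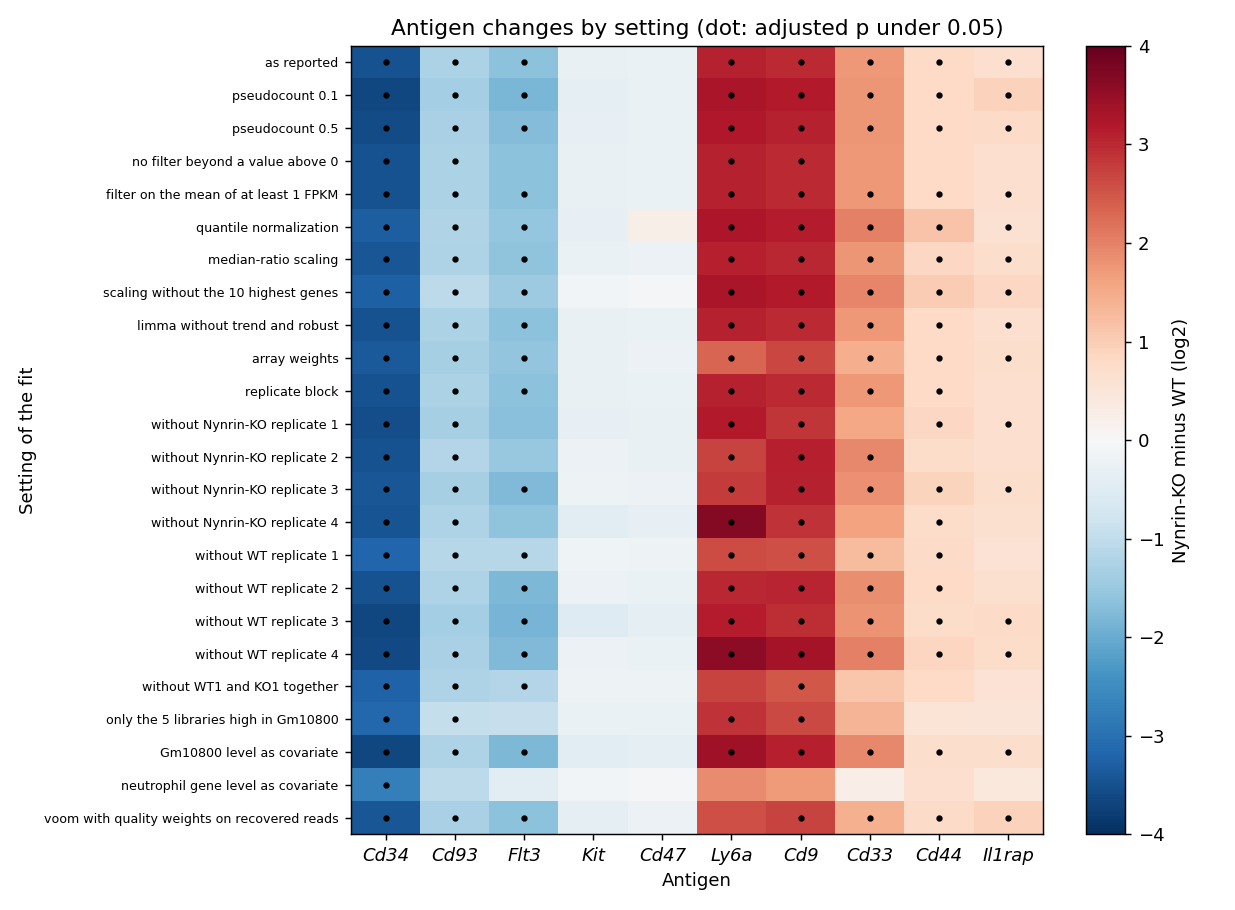
Difference of Nynrin-KO minus WT (log2, colour) for each antigen under each setting of the fit, the reported fit first; a dot marks adjusted p under 0.05. Cd34 has a dot in every row, and with the neutrophil gene level as a covariate it is the only antigen with a dot.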

How the data were processed

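RNA was measured in 4 Nynrin-KO and 4 WT libraries of sorted cells. The authors deposited values that were read as FPKM: each value times the length of the longest GENCODE M21 transcript of the gene gave nearly equal column totals. Per the submitters' processing notes mm10 was the build, and HTSeq, Cufflinks 2.1.1 and Bowtie 0.12.9 were used in roles that are not stated. Dividing by a step per library gave whole reads for 99.43% to 99.52% of low values (tolerance 0.1 read). Of genes with 2 to 20 reads, 62.8% to 70.9% had an even number, so recovered reads are not all independent. For a transcript of 1 kb, 3 reads are worth 1.64 FPKM in KO3 and 0.0906 FPKM in WT1, which covers counting error only.

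A two-sided test in limma 3.58.1 under R 4.3.3 took log2(FPKM + 1) of genes at 1 FPKM or more in 4 libraries or more, with trend and robust variances, genotype as the only term and Benjamini-Hochberg adjustment at 0.05. This scale understates the change of low genes. Tables and plots used Python 3.11.15, pandas 2.3.3, numpy 2.4.6, scipy 1.17.1 and matplotlib 3.10.9. Named in full are the 10 antigens and the 3 nearest profiles of each called antigen. In each list of related genes, up to 4 genes past the threshold were named by smallest p and up to 2 others by mean level. The interferon, neutrophil and other cell type lists did not all keep to this rule, and some of their strongest changes go unnamed. Clec12a, Flt3l, Kitl, Csf1r, Ly6e, Ly6c2, Thbd, Tspan3, Tspan4, Mpo, Ctsg, Elane, Ms4a3, Prg2, S100a8, S100a9, Ngp, Ifit1, Fcgr1, Adgre1, Cd68, Ccr2, Cd79b and the low marker genes named beside their lists were chosen after their values were seen. The members and lists were chosen with earlier results of these data known.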

Additional observations from a re-analysis of the deposited data

Results flagged for a closer look

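Of 20 sets of 4 libraries examined, 10 antigens in each group, 1 held a library far from the others: Flt3 was 46.9 FPKM in WT1, against 9.80 to 12.5 FPKM in WT2 to WT4. Chance gives such a gap in about 1 of 20 sets. Without WT1 the log2 change of Flt3 was -1.15 and still past the limma threshold.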

How the results depend on the processing

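Of 250 antigen log2 changes over 25 alternatives, 213 kept their direction and side of the threshold, 36 kept the direction but missed the threshold, and 1 turned round, Cd47 at 0.22 under quantile normalization. The cause was not tested. Against 5 antigens higher in Nynrin-KO, the count was 2 with no filter, 2 in the 5 libraries high in Gm10800, 1 without WT1 and KO1, 1 at an adjusted p threshold of 0.01, 0 with the neutrophil genes as covariate, and 3 to 5 when each library was left out, with 3 without KO2 or KO4. In the fit with 0 higher, 8 genes of all tested were called. Against 3 lower, the count was 1 with the neutrophil covariate and 2 to 3 when each library was left out. It was also 2 with no filter, 2 in the 5 libraries high in Gm10800 and 2 at the threshold of 0.01. Over all genes tested, 1754 were higher and 1734 lower, against 2606 higher and 1350 lower when scaled without the 10 highest genes, which moved the median of all genes to 0.133. These counts were 790 and 908 with no filter, 765 and 814 without WT1 and KO1, 211 and 714 in the 5 libraries, 4 and 4 with the covariate, 671 and 783 at 0.01, and 1020 to 1875 and 1204 to 1852 with 1 library left out. The replicate number as a block gave 4 higher and 3 lower, with Il1rap at 0.67 (adjusted p = 0.0533). Same-numbered libraries did not pair as a rule, with correlations of their deviations of -0.213, -0.389, 0.329 and 0.008. Only for KO3, a shallow library like WT3, was the same-numbered WT library the closest. The planned edgeR and DESeq2 fits on recovered reads were not run. The fit made on those reads was voom, which called 2352 genes higher and 2322 lower. Depth limits the low values of KO3 and WT3 most: WT3 had 15 reads of Cd9, 16 of Ly6a, 22 of Il1rap and 27 of Kit, and KO3 had 28 of Kit, 28 of Il1rap and 31 of Cd34.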
